A study of Mus musculus with 21 samples.

Results

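The genes described are 10 receptors and bridging proteins of efferocytosis and scavenging, namely Axl, Mertk, Tyro3, Gas6, Mfge8, Timd4, Havcr2, Cd36, Msr1 and Stab1. They were chosen by gene symbol, and their rows are 10 of the 37734 genes for which each library has a value. The study compared conventional dendritic cells (cDCs) of the thymus and the spleen by bulk RNAseq of cells sorted from C57BL/6 (B6) mice aged 6 to 8 weeks, each library being made from cells pooled over several animals. There were 6 groups, namely immature (CCR7-) cDC1 and cDC2 of the spleen, immature (CCR7-) cDC1 and cDC2 of the thymus, and mature (CCR7+) cDC1 and cDC2 of the thymus. Mature cells were sorted as CCR7+ Esam+ and immature cells as CCR7- Esam-. cDC1 were gated as CD24+ CD11b- CD11c+ and cDC2 as CD24- CD11b+ CD11c+, in both cases without B220. The labels name exclusion of F4/80+ cells, the surface protein of many macrophages, for cDC1 alone, whereas the study defined both subsets as F4/80- in its flow cytometry. All groups came from this strain, the labels name no treatment, and no mature splenic group is part of the series.

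Efferocytosis is the uptake of dying cells, which expose phosphatidylserine on their surface. In the thymus, where most developing T cells die during selection, macrophages and dendritic cells carry it out. Axl, Mertk and Tyro3 are the TAM receptor tyrosine kinases, which bind phosphatidylserine through the bridging ligand Gas6. Mfge8 is a secreted protein that bridges phosphatidylserine to integrins. Timd4 and Havcr2 (TIM-4 and TIM-3) bind phosphatidylserine directly, and Havcr2 is best known as an inhibitory receptor of exhausted T cells and of dendritic cells. Cd36, Msr1 and Stab1 are scavenger receptors of lipoproteins and of dying cells.

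The 21 libraries held between 14266867 and 40119669 reads each. Splenic cDC1 replicates 4 and 5 differed by little more than sampling noise and were averaged, which left 20 samples, 4 in each group of immature cDC1 and 3 in each other group. The markers of conventional dendritic cells were present in every group, with all 5 markers of the list at a mean of at least 10. Itgax (2117 against 20869), H2-Ab1 and Cd74 had lower means in mature than in immature thymic cDC1, and Zbtb46 and Flt3 higher ones. The cDC1 markers summed to 148320 to 178137 in immature and 8032 to 9920 in mature thymic cDC1, and to 5461 to 8598 in mature thymic cDC2. Of these cDC1 markers Batf3 alone had a higher mean in mature than in immature thymic cDC1 (4998 against 1427). The most abundant of the cDC2 markers was Sirpa in the spleen, Mgl2 in immature and Irf4 in mature thymic cDC2. Of the 14 macrophage markers, 7 to 13 had a mean of at least 10 in a group and Vsig4 was at 0 in all groups. Their summed value was 769 to 1328 in splenic and 1014 to 1323 in immature thymic cDC1, 6898 to 7899.8 in splenic and 8113 to 11939.7 in immature thymic cDC2, 6265 to 9034 in mature thymic cDC1 and 6168 to 19831 in mature thymic cDC2. The means of Adgre1 (51.1 against 97.9), Fcgr1, C1qa, C1qb and C1qc were not higher in mature than in immature thymic cDC1. The larger sum in mature thymic cDC1 thus came from other genes of the list, which are not broken down here. Mature thymic cDC2 replicate 3 stood apart, with a summed value of the complement genes C1qa, C1qb and C1qc of 1513 against 12267 and 13141 in replicates 1 and 2. Mature thymic cDC1 replicate 3 also differed from its group, with a C1q sum of 410.2 against 57.1 and 62.4. The monocyte markers summed to 8791 to 11246 in immature and 373 to 624 in mature thymic cDC1, and to 45871 to 53946 in immature and 2163 to 6859 in mature thymic cDC2. The thymocyte and T cell markers summed to 829.9 to 2579 in mature and 29.4 to 316 in immature samples, and the thymic epithelial markers, led by Aire in mature cells, to 1709 to 4526 and 58.7 to 223. The endothelial and fibroblast markers summed to 4572 to 5076 in immature thymic and 2163 to 2273 in splenic cDC2. In immature thymic cDC2 Pecam1 and Kdr had means of 2539 and 2255, and Cdh5, Stab2, Col1a1, Col3a1 and Pdgfra were at 28.1 or below. The part of other cell types in the values below was not tested, and in such bulk samples fewer cells that express a gene and less RNA per cell cannot be told apart.

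Of the 10 genes, the 2 most abundant per kilobase of exon in immature cDC1, Havcr2 and Cd36, fell at maturation, while Mfge8 rose in mature cells of both subsets and Tyro3 was near 0 in all but mature cells. Axl rose at maturation in cDC1 and was lower in mature than in immature cDC2, a call that was lost without mature thymic cDC2 replicate 3. In immature thymic cells 6 of the 10 genes were higher in cDC2 than in cDC1, and Cd36 was lower, where 11% of all genes tested were higher and 5.42% lower. Among immature cells, Axl was higher in the thymus than in the spleen in both subsets, and Timd4, Stab1 and Mfge8 were higher in thymic than in splenic cDC2.

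**Figure D1:**
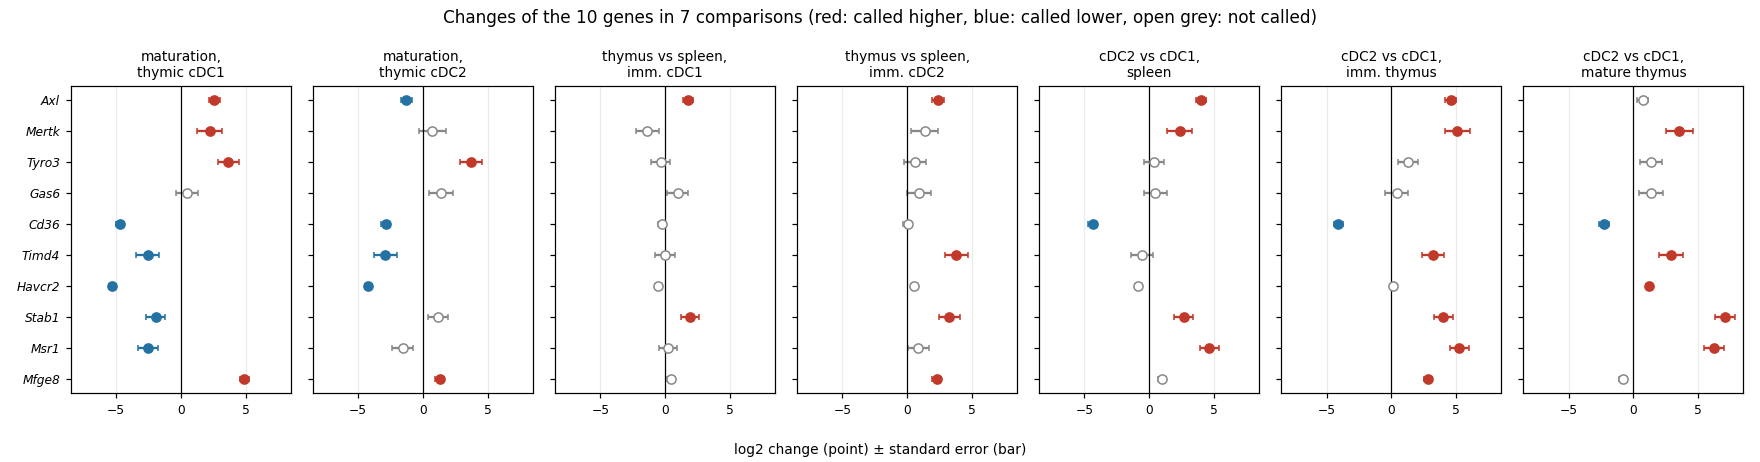
Log2 change (x axis, point, with its standard error as a bar) of each of the 10 genes (y axis) in 7 comparisons, with genes called higher in red, genes called lower in blue and genes not called in open grey. Havcr2 and Cd36 were lower and Mfge8 and Tyro3 higher in mature cells of both subsets, while Axl was called higher in mature cDC1 and lower in mature cDC2, the latter not without mature thymic cDC2 replicate 3 (-0.86, adjusted p = 0.134).

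In the genome (mm10) the 10 genes lie on 6 chromosomes. The TAM receptor genes are Axl (ENSMUSG00000002602) at chr7:25757273-25788705, and Mertk (ENSMUSG00000014361) and Tyro3 (ENSMUSG00000027298) at chr2:128698956-128802894 and chr2:119797733-119818104. The bridging proteins are Gas6 (ENSMUSG00000031451) at chr8:13465374-13494490 and Mfge8 (ENSMUSG00000030605) at chr7:79133768-79149060. Havcr2 (ENSMUSG00000020399) at chr11:46454935-46481255 and Timd4 (ENSMUSG00000055546) at chr11:46810800-46844332 both lie in the TIM gene region, 329.5 kb apart. Cd36 (ENSMUSG00000002944) lies at chr5:17781690-17888801, Msr1 (ENSMUSG00000025044) at chr8:39581685-39642673 and Stab1 (ENSMUSG00000042286) at chr14:31139013-31168641. All are protein-coding, and 8 share no exon bases with another gene. Exons of Gas6 overlap those of Tmem255b by 34 bp and exons of Stab1 those of Nt5dc2 by 112 bp, in each case on the opposite strand. The strand setting of the counting is not given in the sources used here, so reads in these stretches cannot be assigned.

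The 250 bases before the start site are shown for 4 genes, the pair that rose most in mature thymic cDC1 among those above a mean of 100 (Mfge8 and Axl) and the pair that fell most (Havcr2 and Cd36). The sequences are those of RefSeq on GRCm38.p6, which held 9 of the 10 genes, and are written 5′ to 3′ on the strand of the gene. Capitals mark matches to any of 7 motifs searched on both strands, namely AP-1 (TGANTCA), PU.1 (GAGGAAGT), the E-box (CACGTG) and, in consensus forms that allow several letters at some positions, kappaB, the interferon-stimulated response element and the nuclear receptor repeats DR1 and DR4. No pair of these motifs overlapped in the sequences shown.
Mfge8, chr7:79149061-79149310, minus strand: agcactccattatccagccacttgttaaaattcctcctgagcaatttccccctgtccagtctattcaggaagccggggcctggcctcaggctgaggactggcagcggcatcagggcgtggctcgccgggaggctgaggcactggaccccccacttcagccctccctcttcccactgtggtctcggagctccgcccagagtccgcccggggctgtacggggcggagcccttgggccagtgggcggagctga
Axl, chr7:25788734-25788983, minus strand: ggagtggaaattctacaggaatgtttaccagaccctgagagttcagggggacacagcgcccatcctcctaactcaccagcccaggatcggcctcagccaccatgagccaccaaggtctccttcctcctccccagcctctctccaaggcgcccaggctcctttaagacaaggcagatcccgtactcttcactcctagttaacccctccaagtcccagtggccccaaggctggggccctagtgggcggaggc
Havcr2, chr11:46454681-46454930, plus strand: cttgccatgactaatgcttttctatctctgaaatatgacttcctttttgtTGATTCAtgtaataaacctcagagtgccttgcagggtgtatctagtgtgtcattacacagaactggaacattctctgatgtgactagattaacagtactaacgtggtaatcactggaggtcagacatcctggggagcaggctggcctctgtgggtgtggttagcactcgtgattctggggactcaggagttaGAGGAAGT
Cd36, chr5:17835897-17836146, minus strand: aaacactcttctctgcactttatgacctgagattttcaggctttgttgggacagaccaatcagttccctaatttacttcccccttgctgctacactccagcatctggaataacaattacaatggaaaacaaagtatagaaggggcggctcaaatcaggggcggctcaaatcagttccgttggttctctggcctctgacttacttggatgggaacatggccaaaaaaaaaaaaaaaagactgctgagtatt
Havcr2 held 1 AP-1 and 1 PU.1 match, motifs found in 6.75% and 2.44% of the 32851 RefSeq upstream stretches of this length. Mfge8, Axl and Cd36 held none of the 7 motifs. Among the others of the 9 genes, Tyro3 held 1 kappaB match, a motif found in 3.90% of all stretches. The RefSeq start of Tyro3 lies within the gene as annotated by GENCODE, and its 250 bases hold annotated exon bases. The E-box occurred in 6.02%, the interferon-stimulated response element in 0.177%, and DR1 and DR4 in 0.164% and 0.067% of all stretches, and none of these was present in the 9 genes. The consensus forms were set after a first search with other forms, in which a looser kappaB form found in 17.6% of all stretches matched in Axl, Cd36 and Mertk, so that these matches depend on the form chosen. Cd36 has start sites far apart, and the RefSeq start used here lies within the gene as annotated by GENCODE.

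Values are read counts divided by the size factor of the library, called normalised read counts here, and are listed in the order of the replicates of a group. Changes are log2 differences of the value plus 1 with their standard error (SE), tested with limma over 14970 genes, and genes with an adjusted p below 0.1 that changed over 2-fold were called. All 10 genes passed the filter, which asked for 3 samples with a value of 10 or more. Tyro3 did so through the mature groups alone, so that it had to be higher there to be tested, and its test is given with no filter beyond 1 read.

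Axl was the most abundant TAM receptor per kilobase of exon in every group. Its normalised read counts were 41.2, 133, 123 and 95.3 in splenic cDC1 and 355, 289, 334 and 284 in immature thymic cDC1. In mature thymic cDC1 they were 1941, 948 and 3615. All 3 mature samples lay above all 8 immature cDC1 samples, with the mean rising from 315 ± 34.5 (SD, n = 4) to 2168 ± 1348 (SD, n = 3) within the thymus. In cDC2, Axl had values of 1494, 1030.2 and 1972 in the spleen, 8343, 6978 and 7363 in immature thymic cells and 4117, 4167 and 1719 in mature thymic cells. The order of the group means ran from immature thymic cDC2 through mature thymic cDC2, mature thymic cDC1, splenic cDC2 and immature thymic cDC1 to splenic cDC1. Samples of mature thymic cDC2, mature thymic cDC1 and splenic cDC2 overlapped between neighbours, and the other neighbours did not overlap.

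Axl rose by 2.58 on the log2 scale at maturation of cDC1 (SE 0.41, limma adjusted p = 1.56e-05) and fell by 1.29 in cDC2 (SE 0.43, adjusted p = 0.0194). The maturation effect in cDC2 minus that in cDC1 was -3.87 (SE 0.60, adjusted p = 1.90e-04). Without mature thymic cDC2 replicate 3 the change in cDC2 was -0.86 and was not called (adjusted p = 0.134), while the difference between the subsets was -3.44 (adjusted p = 6.10e-04). The thymus exceeded the spleen by 1.80 in immature cDC1 (SE 0.38, adjusted p = 0.00216) and by 2.38 in immature cDC2 (SE 0.43, adjusted p = 4.59e-04). cDC2 exceeded cDC1 by 4.00 in the spleen (SE 0.41, adjusted p = 1.99e-07) and by 4.58 in the immature thymic cells (SE 0.41, adjusted p = 3.62e-08). Among mature cells the difference was 0.72 (SE 0.43, adjusted p = 0.258), and the samples of the subsets overlapped. It was called without mature thymic cDC2 replicate 3 (1.14, adjusted p = 0.0758) and without mature thymic cDC1 replicate 3 (1.19, adjusted p = 0.0514).

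Mertk, the TAM receptor through which macrophages take up apoptotic cells, was a cDC2 gene in the thymus. Its normalised read counts were 5.07, 9.16, 4.68 and 0 in immature and 12.9, 17.3 and 32.8 in mature thymic cDC1. They were 183, 118 and 143 in immature and 323, 355 and 120.1 in mature thymic cDC2. Each thymic cDC2 sample lay above each thymic cDC1 sample, and cDC2 exceeded cDC1 by 5.08 in immature (SE 0.96, adjusted p = 4.38e-04) and by 3.55 in mature cells (SE 1.03, adjusted p = 0.0161). In the spleen, cDC1 had 0, 48.3, 12 and 23.9 and cDC2 38.4, 108 and 44.0. These groups overlapped, and the call in the spleen (2.36, SE 0.96, adjusted p = 0.0842) was lost in 5 of 7 runs that each left out 1 sample, for instance at 1.20 (adjusted p = 0.292) without splenic cDC1 replicate 1, in which no read of Mertk was counted. A count of 0 there allows a value of up to 3.09.

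At maturation of cDC1, Mertk rose by 2.24 (SE 0.96, adjusted p = 0.0521). This call rested on few reads, 0 to 11 in an immature and 7 to 41 in a mature sample, and was lost without mature thymic cDC1 replicate 3 (1.88, adjusted p = 0.154) or without immature thymic cDC1 replicate 4 (1.54, adjusted p = 0.175). In cDC2, Mertk of mature and immature cells overlapped and the change was smaller than its standard error. Between thymic and splenic cDC1 the change was -1.38 (SE 0.89, adjusted p = 0.430), and -2.54 (adjusted p = 0.0189) without splenic cDC1 replicate 1.

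Tyro3, the third TAM receptor, was close to 0 in all immature groups and present in mature ones. It had values of 0, 3.33, 0 and 0 in immature thymic cDC1, 0, 2.96, 1.85 and 0 in splenic cDC1 and 0.92, 0.62 and 3.26 in splenic cDC2. A count of 0 in immature thymic cDC1 allows a value of up to 2.53 to 4.68, depending on the library. Mature thymic cDC1 had 9.22, 12.1 and 44.0, and mature thymic cDC2 had 62.2, 33.4 and 43.2 against 0, 6.70 and 4.67 in immature thymic cDC2. Mature and immature samples did not overlap in either subset. With no filter beyond 1 read, so that Tyro3 was tested whatever its level in mature cells, the change was 3.66 in cDC1 (limma adjusted p = 9.15e-04) and 3.70 in cDC2 (adjusted p = 0.00204). Summed over libraries, 67 reads in mature against 4 in immature thymic cDC1 gave a ratio of 28.4 after correction for depth, with an exact 95% interval of 10.6 to 107 for counting error only. Of the 67 reads 55 came from mature thymic cDC1 replicate 3, and the interval leaves out the spread between libraries.

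**Figure D2:**
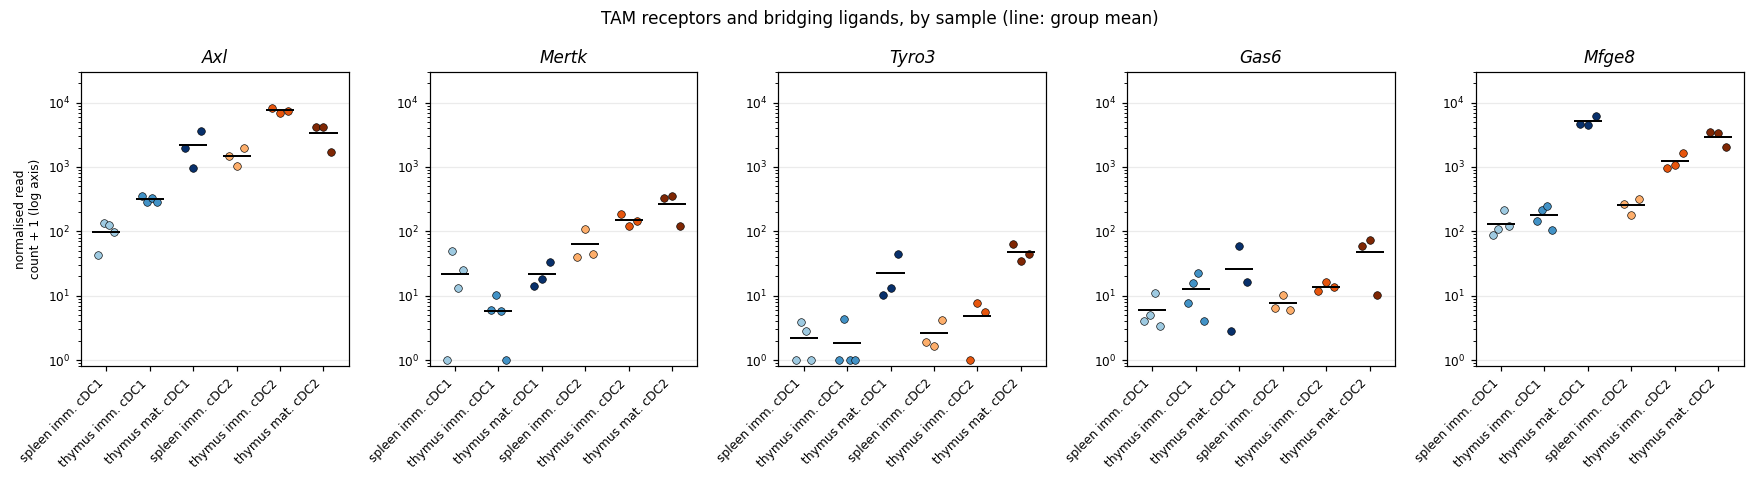
Normalised read count plus 1 (y axis, log scale) of the TAM receptors Axl, Mertk and Tyro3 and the bridging proteins Gas6 and Mfge8 in each sample of the 6 groups (x axis), with the group mean as a line. Axl of immature thymic cDC2 lies between 6978 and 8343, Tyro3 is at or below 6.70 in every immature sample, and Mfge8 of mature thymic cDC1 lies between 4407 and 6181.

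As a share of the summed TAM receptors per kilobase of exon, Axl made up 83.9% ± 13.3 (SD, n = 4) in splenic cDC1 and 94.5% ± 4.68 (SD, n = 3) in splenic cDC2. It made up 98.1% ± 1.83 (SD, n = 4) and 97.8% ± 0.24 (SD, n = 3) in immature thymic cDC1 and cDC2, and 97.9% ± 0.96 (SD, n = 3) in mature thymic cDC1. The share in mature thymic cDC2 was 90.6% ± 0.16 (SD, n = 3), and its 3 samples, at 90.5% to 90.8%, lay below all immature thymic cDC2 samples, at 97.5% to 98.0%. The share in mature thymic cDC2 replicate 3 lay within this narrow range, although its Axl and Mertk were lower than in the other 2 samples.

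Gas6, the ligand that joins the TAM receptors to phosphatidylserine, was scarce. Its lowest and highest values were 2.41 and 10.2 in splenic cDC1, 3.03 and 21.8 in immature thymic cDC1, 4.89 and 9.37 in splenic cDC2 and 10.7 and 15.4 in immature thymic cDC2. It had 1.84, 58.9 and 15.2 in mature thymic cDC1 and 58.3, 71.0 and 9.42 in mature thymic cDC2. Mature samples spread over more than 10-fold within cDC1 and lay on both sides of the immature samples. Gas6 was not called in any of the comparisons. At maturation of cDC2 its change was 1.37 (SE 0.92, adjusted p = 0.236), and without mature thymic cDC2 replicate 3 it was 2.25 and called (adjusted p = 0.0615), as it was on recovered reads with edgeR (1.87, adjusted p = 0.0956) and DESeq2 (1.84, adjusted p = 0.0780).

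Mfge8, the bridging protein to integrins, rose most of the 10 genes at maturation of cDC1. Its normalised read counts were 143, 211, 245 and 105 in immature and 4660.1, 4407 and 6181 in mature thymic cDC1. In thymic cDC2 they were 954, 1069 and 1642 in immature and 3446, 3422 and 2023 in mature cells. The mature samples were higher than all immature samples in both subsets, with a change of 4.90 in cDC1 (SE 0.32, adjusted p = 6.00e-11) and 1.28 in cDC2 (SE 0.34, adjusted p = 0.00430). The maturation effect in cDC2 minus that in cDC1 was -3.63 (SE 0.47, adjusted p = 2.97e-05). The group means ran from mature cDC1 through mature cDC2 to immature thymic cDC2 with no overlap between neighbours, and the 3 remaining groups overlapped.

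Splenic cells had low Mfge8, at 85.4, 108, 211 and 118 in cDC1 and 262, 179 and 318 in cDC2. The thymus exceeded the spleen by 2.27 in cDC2 (SE 0.34, adjusted p = 6.24e-05), and samples of the tissues did not overlap. In cDC1 the samples of both tissues overlapped, with a change of 0.43 (SE 0.30, adjusted p = 0.461), and the tissue effect was larger in cDC2 by 1.83 (SE 0.45, adjusted p = 0.0198). Mfge8 of immature thymic cells was higher in cDC2 by 2.82 (SE 0.32, adjusted p = 1.03e-06). Among mature cells all cDC1 samples lay above all cDC2 samples, but the change of -0.80 (SE 0.34, adjusted p = 0.0989) was under 2-fold and was not called. The change between the splenic subsets, 0.99 (SE 0.32, adjusted p = 0.0277), was also just under 2-fold.

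Timd4, a receptor that tethers apoptotic cells, was a gene of immature thymic cDC2. It had 531, 898 and 827 normalised read counts there. In every other sample it was at 120.3 or below, with 45.8, 56.9 and 53.8 in splenic cDC2 and 104, 101 and 88.7 in mature thymic cDC2. Immature thymic cDC2 exceeded splenic cDC2 by 3.79 (SE 0.91, adjusted p = 0.00484) and immature thymic cDC1 by 3.23 (SE 0.85, adjusted p = 0.00807), and Timd4 fell by 2.90 at maturation of cDC2 (SE 0.91, adjusted p = 0.0126). Splenic and immature thymic cDC1, at 47.4 to 109 and 60 to 120.3, had the same mean of 80.5. The tissue effect was larger in cDC2 by 3.79 (SE 1.20, adjusted p = 0.0870), a call that was lost in 12 of 14 runs leaving out 1 sample, with adjusted p of 0.103 to 0.181 and changes of 3.62 to 4.02.

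In mature thymic cDC1, Timd4 had 59.0, 0 and 36.8. The 0 in replicate 2, which allows a value of up to 5.20, decided the size of its change. Timd4 fell by 2.58 at maturation of cDC1 (SE 0.85, adjusted p = 0.0135), but by 0.72 without that sample (adjusted p = 0.0993), less than the 2-fold required. Mature cDC2 exceeded mature cDC1 by 2.91 (SE 0.91, adjusted p = 0.0249), a comparison that the same 0 enters. Over the alternatives it ranged from 1.05 to 4.00. The call was lost with only the compared groups fitted (2.91, adjusted p = 0.248).

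Havcr2 was the most abundant of the 10 genes per kilobase of exon in 4 of 6 groups and fell at maturation. Immature thymic cDC1 had 10214, 9675, 8765 and 9810.3 and mature thymic cDC1 206, 208 and 315. In thymic cDC2 the values were 11094, 11549.8 and 9826 in immature and 616, 797 and 364 in mature cells. Every immature sample of the thymus was at or above 8765 and every mature one at or below 797, with changes of -5.33 in cDC1 (SE 0.21, adjusted p = 2.79e-14) and -4.26 in cDC2 (SE 0.22, adjusted p = 7.50e-12). The fall was smaller in cDC2 by 1.07 (SE 0.30, adjusted p = 0.0240), and mature cDC2 exceeded mature cDC1 2.44-fold in the mean (adjusted p = 3.68e-04). Both of these lie close to the 2-fold limit, and without mature thymic cDC2 replicate 2 they were 0.82 and 0.99 on the log2 scale.

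The immature groups differed little in Havcr2. Splenic cDC1 had 16246, 15822, 11350.3 and 13472 and splenic cDC2 7112, 8687 and 6930.2. Splenic cDC1 were higher than all immature thymic cDC1 and all splenic cDC2 samples, but by less than 2-fold, with changes of -0.55 from spleen to thymus (SE 0.19, adjusted p = 0.0692) and -0.90 from cDC1 to cDC2 (SE 0.21, adjusted p = 0.00253). The tissue effect in cDC2, 0.52 (SE 0.22, adjusted p = 0.111), had the opposite sign, and the difference of the tissue effects was 1.07 (SE 0.29, adjusted p = 0.0380). Per kilobase of exon, Havcr2 made up 92.0% ± 2.08 (SD, n = 3) of the sum of Havcr2 and Timd4 in immature thymic cDC2 and, on average, 99.0% to 99.3% of it in the 3 other immature groups. Its share was 81.8% ± 4.88 (SD, n = 3) in mature cDC2.

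**Figure D3:**
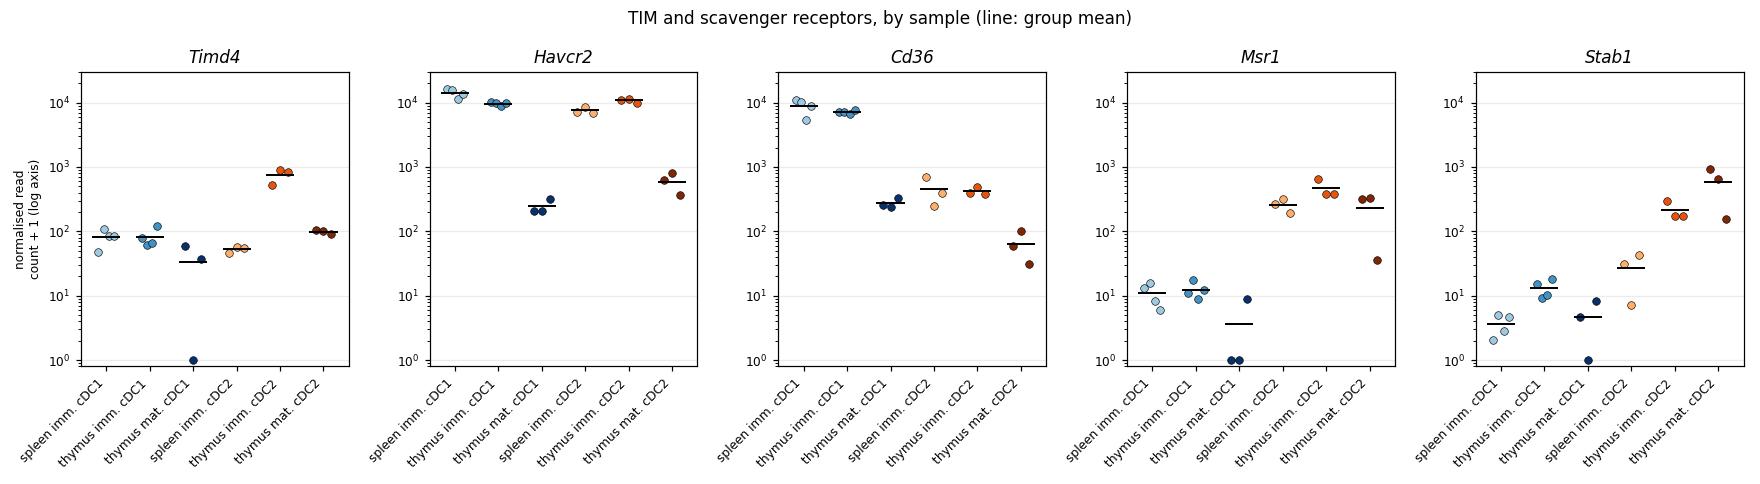
Normalised read count plus 1 (y axis, log scale) of the TIM receptors Timd4 and Havcr2 and the scavenger receptors Cd36, Msr1 and Stab1 in each sample of the 6 groups (x axis), with the group mean as a line. Havcr2 is at or above 6930.2 in every immature sample and at or below 797 in every mature one, Cd36 is at or above 5368 in every immature cDC1 sample and at or below 704 in all others, and Msr1 is at or below 16.7 in every cDC1 sample.

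Cd36, a scavenger receptor of lipids and of apoptotic cells that is expressed by cDC1, was abundant in immature cDC1 of both tissues. Its normalised read counts were 10872, 10039, 5368 and 8956 in the spleen and 7109, 7122, 6547 and 7589 in the thymus. These groups overlapped, and the change between them was smaller than its standard error. Splenic and immature thymic cDC2 had 704, 246 and 393, and 397, 479 and 385. Cd36 was thus lower in cDC2 than in cDC1, with a change of -4.38 in the spleen (SE 0.33, adjusted p = 3.30e-09) and of -4.08 in immature thymic cells (SE 0.33, adjusted p = 1.14e-08).

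At maturation Cd36 fell to 259.9, 236 and 323 in cDC1 and to 57.6, 100.2 and 29.8 in cDC2. The change was -4.71 in cDC1 (SE 0.33, adjusted p = 2.13e-10) and -2.88 in cDC2 (SE 0.36, adjusted p = 1.29e-06), and the difference of the effects was 1.82 (SE 0.49, adjusted p = 0.0173). Mature cDC1 samples still lay above all mature cDC2 samples (-2.26, SE 0.36, adjusted p = 1.03e-04). The group means of Cd36 ran from the immature cDC1 of both tissues through the immature cDC2 of both tissues to mature cDC1 and last mature cDC2, and the only neighbours in this order that overlapped were those of the same subset in the 2 tissues.

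Msr1, the class A scavenger receptor, had the opposite subset pattern. It had at most 16.7 in every cDC1 sample, with 0, 0 and 8.00 in mature thymic cDC1. In cDC2 its values were 264, 315 and 194 in the spleen, 659, 386 and 385 in immature thymic cells and 315, 328 and 35.3 in mature thymic cells. All cDC2 samples lay above all cDC1 samples, and cDC2 exceeded cDC1 by 4.65 in the spleen (SE 0.74, adjusted p = 6.43e-05), 5.26 in immature thymic cells (SE 0.74, adjusted p = 1.54e-05) and 6.23 in mature thymic cells (SE 0.79, adjusted p = 8.60e-06). Summed over libraries, 926 reads in mature cDC2 against 10 in mature cDC1 gave a ratio of 54.7 (exact 95% interval 29.6 to 114, counting error only).

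Msr1 fell by 2.53 at maturation of cDC1 (SE 0.74, adjusted p = 0.00603), a change resting on 10 reads in mature and 48 in immature thymic cDC1, which the edgeR test did not call (-1.60, adjusted p = 0.126). In cDC2 the change was -1.57 (SE 0.79, adjusted p = 0.113) and the samples did not overlap. It depended on replicate 3 of the mature cells, without which it was -0.52 (adjusted p = 0.607). It was called without replicate 1 (-2.08, adjusted p = 0.0641) or replicate 2 (-2.11, adjusted p = 0.0588) of these cells, and with a pseudocount of 8 (-1.49, adjusted p = 0.0293). Msr1 of immature thymic cDC2 exceeded that of splenic cDC2 in every sample, but the change of 0.86 (SE 0.79, adjusted p = 0.502) was not called.

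Stab1, a scavenger receptor of macrophages and sinusoidal endothelium, was highest in thymic cDC2. Its normalised read counts were 292, 170.1 and 171 in immature and 922, 649 and 155 in mature thymic cDC2, against 30.2, 6.25 and 42.4 in splenic cDC2. In cDC1 it had 14.4, 8.33, 9.36 and 17.2 in immature thymic, 1.03, 3.94, 1.85 and 3.67 in splenic and 3.69, 0 and 7.20 in mature thymic cells. Every thymic cDC2 sample exceeded every other sample. Immature thymic cDC2 exceeded splenic cDC2 by 3.26 (SE 0.78, adjusted p = 0.00478). cDC2 exceeded cDC1 by 2.65 in the spleen (SE 0.73, adjusted p = 0.00987), 4.00 in immature thymic cells (SE 0.73, adjusted p = 2.97e-04) and 7.07 in mature thymic cells (SE 0.78, adjusted p = 1.68e-06).

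Stab1 fell by 1.93 at maturation of cDC1 (SE 0.73, adjusted p = 0.0292), on 11 reads in mature and 50 in immature cells, and by 1.05 (adjusted p = 0.227) without mature thymic cDC1 replicate 2, in which it was at 0. In cDC2 the change was 1.14 (SE 0.78, adjusted p = 0.247), and it was 1.92 and called (adjusted p = 0.0620) without mature thymic cDC2 replicate 3. It was also called with edgeR (1.48, adjusted p = 0.0392) and DESeq2 (1.44, adjusted p = 0.0364). The difference of the maturation effects was 3.07 (SE 1.07, adjusted p = 0.0652), or 3.84 (adjusted p = 0.0194) without that replicate, and 2.19 (adjusted p = 0.164) without mature thymic cDC1 replicate 2. Immature thymic cDC1 exceeded splenic cDC1 by 1.92 (SE 0.68, adjusted p = 0.0737), at 6 to 17 reads per thymic and 1 to 11 per splenic sample, and this call was lost in 5 of 8 runs leaving out 1 sample.

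Mature thymic cDC1 differed from immature ones in 9 of the 10 genes, of which 4 were higher (Axl, Mertk, Tyro3 and Mfge8) and 5 lower (Cd36, Timd4, Havcr2, Stab1 and Msr1), whereas 45.7% of all genes tested were called in this comparison, 21.3% as higher and 24.5% as lower. Tyro3 passed the filter through its mature values, so its place in these counts of mature against immature cells was fixed by the filter, and 8 of the other 9 genes were called in cDC1 and 5 of them in cDC2. The median log2 change of the 10 genes in cDC1 was -0.74, against -0.04 over all genes tested. In thymic cDC2 6 of the 10 were called, with Tyro3 and Mfge8 higher and Axl, Cd36, Timd4 and Havcr2 lower, against 35.6% of all genes (18.6% higher and 17% lower), and the medians were -0.29 and 0.04. Without mature thymic cDC2 replicate 3, 7 of the 10 were called, Axl being lost and Gas6 and Stab1 added. The maturation effects of cDC2 and cDC1 differed for 5 of the 10 genes (Cd36, Havcr2 and Stab1 with a positive difference, Axl and Mfge8 with a negative one), with 13.6% of all genes called, 8.34% with a positive and 5.25% with a negative difference. These comparisons share their groups with those between subsets and tissues.

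Between thymic and splenic immature cells, 2 of the 10 genes were called in cDC1 (Axl and Stab1) and 4 in cDC2 (Axl, Timd4, Stab1 and Mfge8), all higher in the thymus, against 8.77% and 14.2% of all genes. Of all genes, 4.26% were higher and 4.52% lower in the thymus in cDC1, and 8.3% and 5.87% in cDC2. The median log2 changes of the 10 genes were 0.13 and 1.12, against 0.00 and 0.02 over all genes tested. The tissue effects differed between the subsets for 3 genes (Timd4, Havcr2 and Mfge8, all with a positive difference), with 4.98% of all genes called, 3.27% with a positive and 1.71% with a negative difference. The libraries came from lanes 5 and 8, those of mature cells from lane 8 alone. Among the samples of lane 8 alone, which leave 1 splenic cDC2 library, 2 of the 4 genes of the cDC2 comparison were called (Axl and Mfge8), and Timd4 and Stab1 had changes of 3.98 (adjusted p = 0.152) and 1.99 (adjusted p = 0.364).

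Between cDC2 and cDC1, 5 of the 10 genes were called in the spleen (Axl, Mertk, Stab1 and Msr1 higher in cDC2, Cd36 lower), against 16.6% of all genes (9.93% higher and 6.7% lower). In immature thymic cells 7 were called, these 5 with Timd4 and Mfge8 higher, against 16.4% of all genes (11% higher and 5.42% lower). In mature thymic cells 6 were called (Mertk, Timd4, Havcr2, Stab1 and Msr1 higher in cDC2, Cd36 lower), against 18.9% (14.6% higher and 4.36% lower). The median log2 changes of the 10 genes were 0.74, 3.03 and 1.33, and those of all genes tested 0.02, 0.01 and 0.14.

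Of the 10 genes, the most abundant per kilobase of exon was Havcr2 in all 4 immature groups, with means of 5227 in splenic cDC1, 3534 in immature thymic cDC1, 2784 in splenic cDC2 and 3978 in immature thymic cDC2. It was followed by Cd36 in cDC1, at 2454 and 1975, and by Axl in cDC2, at 298 and 1502. In mature cells the order of abundance was led by Mfge8 in cDC1 (1083) and by Axl and Mfge8 in cDC2 (663 and 631). The lowest level in each immature group was that of Tyro3, at 0.134 to 0.611.

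**Figure D4:**
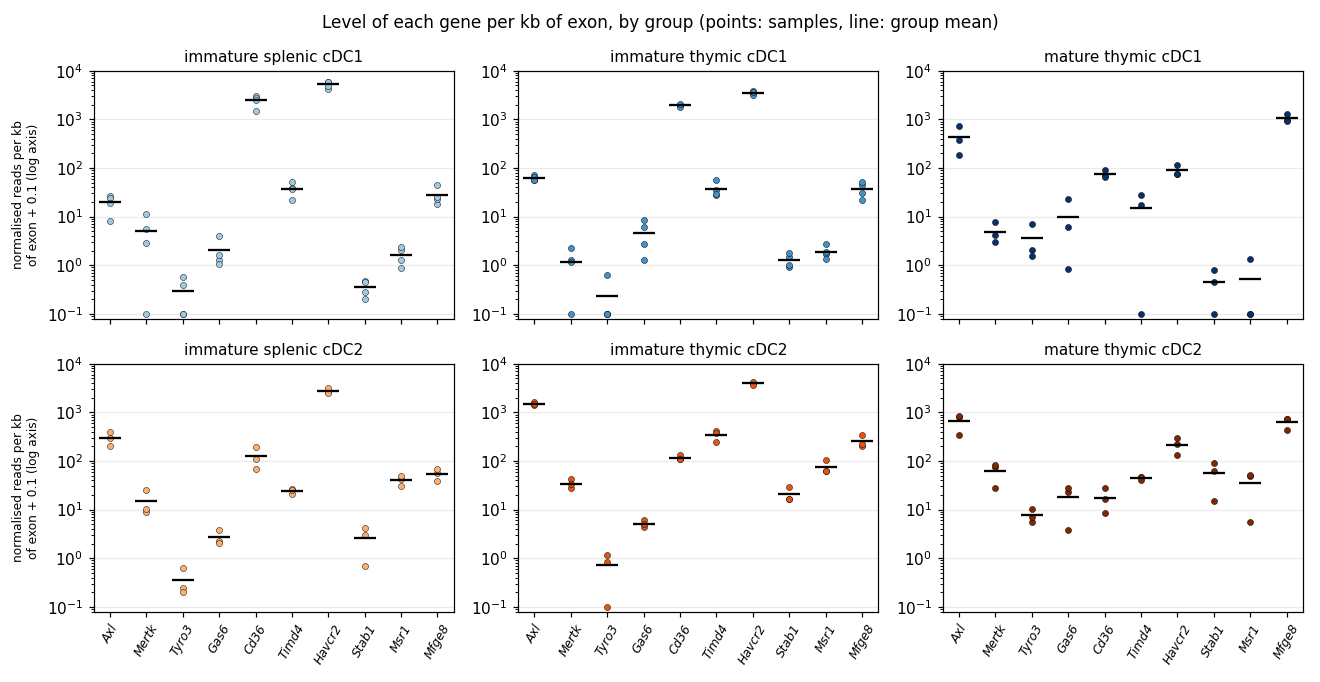
Normalised reads per kilobase of exon plus 0.1 (y axis, log scale) of each of the 10 genes (x axis) in the 6 groups (panels), with samples as points and the group mean as a line. Havcr2 leads in the 4 panels of immature cells, with means of 2784 to 5227, and Mfge8 leads in mature thymic cDC1, with a mean of 1083.

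The C1q genes, which opsonise apoptotic cells, were low in mature thymic cDC2 replicate 3 together with most of the 10 genes. Their summed value was 7413, 4457 and 7238 in immature thymic cDC2, 12267, 13141 and 1513 in mature thymic cDC2, 723 to 1282 in splenic cDC2 and 24.7 to 410.2 in cDC1. In the 2 mature thymic cDC2 samples with high C1q, Mertk, Stab1, Gas6 and Msr1 had 323 and 355, 922 and 649, 58.3 and 71.0, and 315 and 328. In replicate 3 they had 120.1, 155, 9.42 and 35.3. Axl, Mfge8, Havcr2 and Cd36 were also lowest in replicate 3, at 1719, 2023, 364 and 29.8, and Tyro3, at 43.2, was not. Timd4, at 104 and 101 against 88.7, did not differ in this way. The contrast within mature thymic cDC2 rests on 1 sample, and Gas6 did not follow C1q in every group. In mature thymic cDC1 it had 58.9 at a C1q sum of 62.4 and 15.2 at 410.2. In immature thymic cDC1 both were highest in replicate 3, at 21.8 and 360. Of the 10 genes, all but Gas6 and Timd4 were highest in replicate 3 of mature thymic cDC1, which had the C1q sum of 410.2. There Axl had 3615 against 1941 and 948, Mertk 32.8 against 12.9 and 17.3, and Tyro3 44.0 against 9.22 and 12.1. The C1q genes are 3 of the 14 macrophage markers, whose sum in mature thymic cDC2 was 18425 and 19831 in replicates 1 and 2 and 6168 in replicate 3. Within that list Adgre1 and Cd163 were lower in mature than in immature thymic cDC2, at means of 834 against 1874 and 4.97 against 297. C1qa had the higher mean in mature cells, 3058 against 2289, and the rest of the list is not broken down here. The part of macrophages in these values was not tested.

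**Figure D5:**
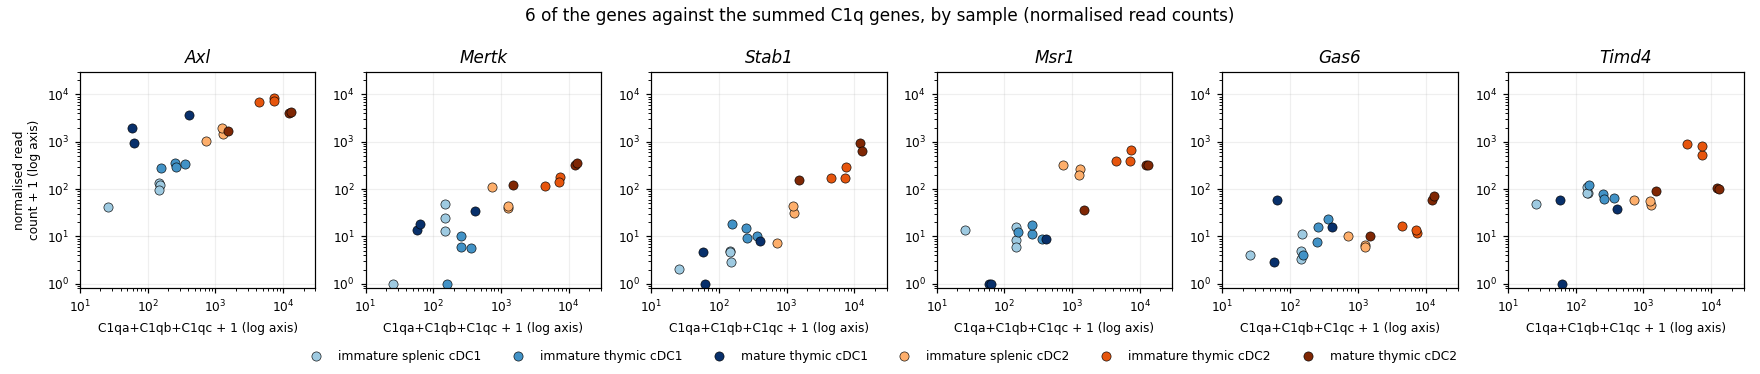
Normalised read count plus 1 of 6 of the genes (y axis, log scale) against the summed C1qa, C1qb and C1qc plus 1 (x axis, log scale) in the 20 samples, coloured by group. Mature thymic cDC2 replicate 3, at a C1q sum of 1513, lies below the other 2 samples of its group for Axl, Mertk, Stab1, Msr1 and Gas6, and close to them for Timd4.

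Other genes of the pathway were counted from 4 lists, of which 83 genes were found. Their counts stand against the shares of all genes tested that were called, 45.7% and 35.6% at maturation of cDC1 and cDC2, 8.77% and 14.2% between tissues, and 16.6%, 16.4% and 18.9% between subsets in the spleen, the immature and the mature thymus. Among 20 tested of 23 other phosphatidylserine receptors and bridging proteins, 11 were lower and 1 higher in mature than in immature thymic cDC1. In cDC2 7 were called, all lower. The gene that rose in cDC1 was Itgb5, a chain of the integrin that binds Mfge8, from 108 ± 14.5 (SD, n = 4) to 535 ± 46.8 (SD, n = 3), with a change of 2.30 (SE 0.34, adjusted p = 8.38e-06). Cd300a, an inhibitory phosphatidylserine receptor, fell by 5.06 (SE 0.51, adjusted p = 3.35e-08) in cDC1 and by 4.49 (SE 0.54, adjusted p = 8.72e-07) in cDC2. Pros1, the other TAM ligand, fell by 3.50 in cDC2 from 353 ± 32.4 to 32.1 ± 13.7 (SD, n = 3 each, SE 0.55, adjusted p = 2.48e-05). The list's median change was -1.13 in cDC1 and -0.63 in cDC2, against -0.04 and 0.04 over all genes.

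In the same list 12 genes were higher and 2 lower in cDC2 than in cDC1 in the spleen, 13 and 1 in immature thymic cells, and all 13 genes called in mature thymic cells were higher. The largest differences were those of Cd300lb, an activating receptor of the CD300 family, in immature cells (5.12 in the spleen, adjusted p = 1.68e-06, and 6.60 in the thymus, adjusted p = 6.07e-08) and of C1qa in mature cells (6.65, adjusted p = 1.65e-05). Thymic cDC2 had 7 genes higher and 3 lower than splenic cDC2, with C1qa at 2289 ± 609 against 359.9 ± 98.7 (SD, n = 3 each, adjusted p = 0.0393), and thymic cDC1 had 1 higher and 6 lower than splenic cDC1. The list's median change from spleen to thymus was -0.44 in cDC2 and -0.13 in cDC1, against 0.02 and 0.00 over all genes. Stab2, the relative of Stab1, fell by 2.66 from splenic to thymic cDC1 (SE 0.76, adjusted p = 0.0219), from 124 ± 3.46 to 24.2 ± 19.6 (SD, n = 4 each).

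Among 15 tested of 20 other scavenger receptors, 5 rose and 4 fell at maturation of cDC1, where 45.7% of all genes were called, and 5 rose and 6 fell in cDC2, where 35.6% were. Lrp8, a receptor of apolipoprotein E and reelin, rose in cDC1 from 257 ± 57.9 (SD, n = 4) in immature to 6907 ± 1550.5 (SD, n = 3) in mature cells (4.74, SE 0.21, adjusted p = 2.08e-13), and Scarf1, a receptor of dying cells that binds C1q, rose by 2.95 (SE 0.45, adjusted p = 1.13e-05) in cDC1 and 3.25 (SE 0.48, adjusted p = 1.31e-05) in cDC2. Scarb1, the receptor of high-density lipoprotein, fell by 4.47 (SE 0.27, adjusted p = 1.62e-11) in cDC1. Cd163, the haemoglobin scavenger receptor, fell by 6.21 in cDC2 (SE 0.65, adjusted p = 1.43e-07). Between subsets 3 genes were called in the spleen, 7 in immature and 7 in mature thymic cells, and each of these was higher in cDC2. Mrc1, the mannose receptor, was 5.85 higher in immature thymic cDC2 than in cDC1 (SE 0.48, adjusted p = 1.05e-08). Between tissues 2 rose and 2 fell in cDC1 and 3 rose and 2 fell in cDC2.

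Of 21 tested of 22 genes of engulfment signalling, 6 rose and 6 fell at maturation of cDC1, and 5 rose and 7 fell in cDC2, against 45.7% and 35.6% of all genes called. Elmo3 and Dock1, of the machinery that activates Rac, rose by 2.49 (SE 0.37, adjusted p = 7.84e-06) and 2.26 (SE 0.22, adjusted p = 1.90e-08) in cDC1, and Arhgap25, a GTPase-activating protein of Rac, fell by 3.03 (SE 0.15, adjusted p = 1.43e-12). Dock1 was higher in cDC2 than in cDC1 by 2.04 in the spleen, 2.96 in immature and 1.67 in mature thymic cells. Between tissues 4 genes were called in cDC1 and 4 in cDC2, each lower in the thymus. Between subsets 2 genes were higher in cDC2 in the spleen and 2 in mature thymic cells, and in immature thymic cells 3 were higher and 2 lower.

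Of 18 genes for the handling of engulfed lipid, 3 rose and 4 fell at maturation of cDC1, and 3 rose and 6 fell in cDC2, again against 45.7% and 35.6% of all genes. Abcg1, an exporter of cholesterol, rose in cDC1 from 2469 ± 179 (SD, n = 4) in immature to 16913 ± 3155 (SD, n = 3) in mature cells (2.76, SE 0.15, adjusted p = 4.45e-12) and by 1.62 (SE 0.16, adjusted p = 7.18e-08) in cDC2. Rxra, the partner of nuclear receptors that sense lipid, fell by 4.70 (SE 0.33, adjusted p = 1.53e-10) in cDC1 and fell by 2.47 (SE 0.35, adjusted p = 6.84e-06) in cDC2. In cDC2 Pltp, the phospholipid transfer protein, exceeded cDC1 by 6.36 in the spleen, 6.08 in immature and 5.33 in mature thymic cells, and Nr1h3, which encodes the oxysterol receptor LXR alpha, by 4.35 in the spleen and 4.09 in immature thymic cells. In each of the 3 comparisons of subsets 7 genes of the list were higher in cDC2, and Rxra was lower in the spleen. Between tissues 2 rose and 1 fell in cDC1 and 4 rose and 1 fell in cDC2. Without mature thymic cDC2 replicate 3, no count of the 4 lists at maturation of cDC2 or between mature subsets moved by more than 1.

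Likeness of pattern was measured as the root-mean-square difference of centred log2 values over the 20 samples, among 10789 genes. The genes most like Havcr2 were Cdca7, Plcb2 and Tifab, at 0.31, 0.34 and 0.41, while the values of Havcr2 themselves had an SD of 2.33. Those most like Axl were Oasl2, Ifit1 and Itgb5, at 0.49, 0.78 and 0.78 (SD of Axl 2.30). Those most like Cd36 were Snx22, Fam149a and Ppt1, at 0.56, 0.60 and 0.71, and those most like Mfge8 were Rftn1, Agrn and Marcksl1, at 0.58, 0.66 and 0.67. For Stab1 they were C1qc, C1qa and Timp2, at 0.83, 0.96 and 1.00 (SD of Stab1 2.87), and for Msr1 they were Cyp4f18, Wfdc17 and Csf3r, at 0.81, 0.90 and 0.92. Mertk and Timd4 had no gene closer than 0.98 and 1.02, those being Prune2 and Dusp7. Nr1h3 was the third gene in likeness to Mertk, at 1.25. The gene closest to Gas6, Limch1 at 0.67, is a match of low values.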

How the data were processed

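RNAseq libraries of sorted cDCs were sequenced by the authors, trimmed with Cutadapt, aligned to mm10 with STAR (2.6), counted with HTSeq-count over Ensembl genes, and scaled with DESeq2 (1.24.0). The deposited values are a signal, the read count divided by 1 size factor per library. Whole reads were recovered for 100% of the values (tolerance 1e-06). Depth was 14266867 to 40119669 reads per library, and intervals cover counting error only. Splenic cDC1 replicates 4 and 5 share their labels, gave 2.44 for the chi-square divided by its degrees of freedom (the group's 9 other pairs 25.0 to 176) and were averaged. Immature thymic cDC1 replicates 3 and 4 share theirs but gave 92.8 (other 5 pairs 22.8 to 86.1) and stayed separate. The 20 samples were fitted together on log2(value + 1) with 1 mean per group in limma (3.58.1, R 4.3.3), with eBayes and an intensity trend, over the 14970 genes that reached 10 in 3 or more samples. The edgeR quasi-likelihood test (4.0.16) and the DESeq2 Wald test (1.42.0) on recovered reads were alternatives, beside other filters, pseudocounts, scalings, lanes and samples. Adjusted p values are Benjamini-Hochberg values over all genes tested, and from limma unless another tool is named. They measure the spread between libraries, and the labels do not say which libraries share mice. Replicates are numbered in the order of deposition. The fits were tested on simulated data. Exon lengths and positions come from GENCODE M21, which holds 37693 of the 37734 identifiers. Genes are named by rule, namely the 10 genes, for each the genes of the most similar pattern, and for each list and comparison up to 2 called genes per direction with the largest change and a mean of at least 100 in 1 of the groups. The likeness of patterns to Tyro3 is not reported here. The genes, lists and tests were chosen with earlier results of these data known.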

Additional observations from a re-analysis of the deposited data

Results flagged for a closer look

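For 5 genes the effect of maturation differed between the subsets by a test of the difference itself (limma, cDC2 minus cDC1, 4 groups of 3 or 4 samples), as it did for 13.6% of all genes tested. The differences in log2 change were -3.87 for Axl, -3.63 for Mfge8, 3.07 for Stab1, 1.82 for Cd36 and 1.07 for Havcr2. For Axl the changes within the subsets had opposite signs, 2.58 and -1.29, and the latter was not called without mature thymic cDC2 replicate 3 (-0.86, adjusted p = 0.134). For Mfge8, Cd36 and Havcr2 they had the same sign and were smaller in cDC2. The difference for Stab1 was lost in 6 of 13 runs that each left out 1 sample. That for Havcr2 fell below 2-fold in 3 of them, without mature thymic cDC1 replicate 1 or 2 (0.97 in both) or mature thymic cDC2 replicate 2 (0.82), and was not called in lane 8 alone (1.06, adjusted p = 0.117).

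For 3 genes the difference between thymus and spleen differed between the subsets by the same kind of test, against 4.98% of all genes tested. The effect in cDC2 minus that in cDC1 was 3.79 for Timd4, 1.83 for Mfge8 and 1.07 for Havcr2. For Havcr2 the effects had opposite signs, -0.55 in cDC1 and 0.52 in cDC2, and neither was called. The call for Timd4 was lost in 12 of 14 runs leaving out 1 sample and that for Havcr2 in 1, without splenic cDC2 replicate 3 (1.01, adjusted p = 0.102), and none of the 3 was called in lane 8 alone.

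Among the 20 sets of 4 samples that were searched for a value far from the others, 1 was found, namely Tyro3 of 3.33 in immature thymic cDC1 replicate 2, where the other 3 samples were at 0. The rule is set so that chance gives about 1 such value in 20 groups of normally distributed values. That rate does not apply here, because with the other 3 samples at 0 any value above 0 meets the rule. This value rests on 4 reads.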

How the results depend on the processing

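Of the 90 changes of the 10 genes, 22 were smaller than their own standard error and have no direction to follow. None of the other 68 changed sign under any alternative, and of the 47 that were called 16 lost the call in at least 1 run. The strictest filter tested 24 of the 47, of which 19 were called in every run, and of the 23 it left untested 12 were called in every other run. Values rescaled by TMM moved the median of all genes by at most 0.04. Genes with few reads limit the depth of what can be told, namely Tyro3 and Gas6 in all groups and Mertk, Stab1 and Msr1 in cDC1.

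With a value of at least 10 required in every sample, the genes called among the 10 were 4 for maturation of cDC1, 1 and 2 for the tissues in cDC1 and cDC2, and 2, 3 and 2 for the subsets in spleen, immature and mature thymus. All genes called were then 4095 and 3123 for maturation, 580 and 1083 for the tissues, 1308, 1086 and 1128 for the subsets, and 1183 and 436 for the differences of maturation and tissue effects. This filter tests fewer genes. With no fold threshold 2308 and 3965 genes were called for the tissues and 4394, 3892 and 4535 for the subsets.

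Within lane 8 alone, which has fewer samples, 1 and 2 of the 10 genes were called for the tissues, 3 for the difference of maturation effects and 0 for the difference of tissue effects, where limma gave 3 (Mertk, Havcr2 and Mfge8) at an unadjusted p below 0.05 and no other tool was run. All genes called were 844 for the tissues in cDC1, 1659 for the splenic subsets, 1218 for the difference of maturation effects and 225 for the difference of tissue effects. For the tissues in cDC1, 1 gene (Axl) was called in place of 2 also with no filter, a pseudocount of 8, lane as a term, or immature thymic cDC1 replicates 3 and 4 averaged. With only the compared groups fitted, 1704 genes were called between the mature subsets, and the cause was not tested.

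Leaving out 1 sample gave 1 to 2 of the 10 genes for the tissues in cDC1, 3 to 5 for the difference of maturation effects and 1 to 4 for the difference of tissue effects, where the lowest counts of these differences came without mature thymic cDC2 replicate 2 (3) and without splenic cDC2 replicate 3 (1).

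The labels number the libraries, and groups share some numbers. Number 2 also recurs within splenic cDC1, in replicate 1 on lane 5 and in the averaged replicates 4 and 5 on lane 8. Number 8 is shared by immature thymic cDC1 replicates 3 and 4 and mature thymic cDC1 replicate 1. The maturation comparisons were not fitted with the number as a block. Same-numbered samples did not all deviate together (correlation -0.08 to 0.46 in the spleen and -0.15 to 0.28 in the immature thymus), and not every sample correlated best with its own number. The mean correlation was 0.16 for same-numbered and -0.08 for other pairs in the spleen, and 0.08 and -0.04 in the immature thymus. Whether a shared number marks shared mice or days cannot be told from this. With the number as a replicate block, 4 of the 10 genes were called between the splenic subsets and 7 in the immature thymus, and Mertk in the spleen (2.07, adjusted p = 0.276) was the only call lost. It was also lost with the same groups and no block (2.36, adjusted p = 0.262). No paired analysis was possible for the mature groups, because they share 1 number.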
